A study of Homo sapiens with 9 samples.

Results

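H/ACA small nucleolar RNAs (snoRNAs) and small Cajal body RNAs (scaRNAs) were taken as the genes whose symbol starts with SNORA or SCARNA followed by a number, with 1 entry per Ensembl identifier. By this rule 239 of the 60683 gene identifiers in the files were members, of which 214 were SNORA and 25 SCARNA entries. They carried 176 different symbols, and 12 symbols stood on several identifiers (75 identifiers in all, 27 of them SNORA70). The study made 9 RNA-seq libraries from HEK293T, a cell line of human embryonic kidney origin that carries the SV40 large T antigen. Parental cells (3 libraries, 75 bp paired reads) are the line from which the clones were made. Clone 37 (3 libraries, 75 bp) and clone 15 (3 libraries, 100 bp) were each grown from a single sorted cell after piggyBac transposition had placed in the genome both an ATG-started reporter with 60 CAG repeats, a Myc tag and NanoLuc and a matching reporter with 0 CAG repeats and firefly luciferase. Clone 37 was selected for high and clone 15 for low expression of both integrated constructs. Each level is represented by 1 clone, and all 100 bp libraries are clone 15, so expression level, clone and read length cannot be told apart where clone 15 is compared. The labels do not say whether replicates were separate cultures, so p-values measure the spread between these libraries, which may be technical.

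H/ACA snoRNAs fold into hairpins followed by a hinge with an H box and a tail with an ACA box, and they guide the conversion of uridine to pseudouridine in ribosomal RNA. ScaRNAs do the same, or guide 2′-O-methylation, on spliceosomal small nuclear RNAs in Cajal bodies, where a CAB box bound by WRAP53 holds the H/ACA type. The SCARNA symbols therefore cover H/ACA, C/D and mixed RNAs. Most members in human cells are cut out of introns of protein-coding or noncoding host genes and then protected by the proteins dyskerin (DKC1), NHP2, NOP10 and GAR1.

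The 10 sequences below are of members called in at least 1 comparison, picked for a large change or a high mean level. Some called members with larger changes than those of several shown, such as SNORA30 and SCARNA18B, are not printed. Sequences are from GENCODE 29 on GRCh38, written 5′ to 3′ on the RNA strand with T for U. Capitals mark ACA followed by 2 to 5 last bases (the ACA box), a single ANANNA in the middle of a sequence that has such an ACA (the H box position) and, in SCARNA genes, each TGAG (the CAB box letters) and TGATGA (the C box core). Of SCARNA7 and SCARNA9 only the first 300 bases are printed (chr3:160514937-160515236 and chr11:93721513-93721812). Only the RNA strand was searched, and TGAG and TGATGA may overlap. SCARNA7 (U90, a scaRNA) lay at chr3:160514907-160515236 on the minus strand in an intron of KPNA4, and its counts were the ones that differed most among the abundant members. SCARNA21 (chr17:7906122-7906260, plus strand, intron of CHD3) and SCARNA9 (chr11:93721513-93721865, plus strand, intron of CEP295) were lower in clone 15 than in clone 37. SCARNA9 passed the filter on low counts, described below, through clone 37 alone, so its direction follows from how it was chosen.
SCARNA7: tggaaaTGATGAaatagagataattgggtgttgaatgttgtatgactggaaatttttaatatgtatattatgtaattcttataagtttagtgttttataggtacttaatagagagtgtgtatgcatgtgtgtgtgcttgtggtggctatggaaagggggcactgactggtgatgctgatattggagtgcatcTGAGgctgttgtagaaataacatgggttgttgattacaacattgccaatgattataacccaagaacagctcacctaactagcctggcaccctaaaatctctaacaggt
SCARNA21: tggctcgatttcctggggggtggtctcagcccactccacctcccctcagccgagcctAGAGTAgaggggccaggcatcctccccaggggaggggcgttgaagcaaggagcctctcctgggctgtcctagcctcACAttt
SCARNA9: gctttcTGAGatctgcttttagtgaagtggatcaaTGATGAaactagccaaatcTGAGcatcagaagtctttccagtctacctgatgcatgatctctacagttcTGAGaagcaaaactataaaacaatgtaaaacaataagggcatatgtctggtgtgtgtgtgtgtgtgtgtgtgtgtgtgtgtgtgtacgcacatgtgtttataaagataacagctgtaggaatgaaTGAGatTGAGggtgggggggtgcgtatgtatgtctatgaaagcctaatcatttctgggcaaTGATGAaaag
SCARNA5 (U87, chr2:233275727-233276002) and SCARNA6 (U88, chr2:233288676-233288940), both on the plus strand in introns of ATG16L1, are mixed C/D and H/ACA scaRNAs whose longest shared run is 15 bases from base 14 of each. They are shown as a pair from 1 host.
SCARNA5: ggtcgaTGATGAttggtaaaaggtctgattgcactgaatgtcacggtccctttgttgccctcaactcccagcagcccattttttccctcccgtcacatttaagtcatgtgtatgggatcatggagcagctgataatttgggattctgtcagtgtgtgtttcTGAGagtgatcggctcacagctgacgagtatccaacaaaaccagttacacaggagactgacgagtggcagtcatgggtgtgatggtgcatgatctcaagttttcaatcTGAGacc
SCARNA6: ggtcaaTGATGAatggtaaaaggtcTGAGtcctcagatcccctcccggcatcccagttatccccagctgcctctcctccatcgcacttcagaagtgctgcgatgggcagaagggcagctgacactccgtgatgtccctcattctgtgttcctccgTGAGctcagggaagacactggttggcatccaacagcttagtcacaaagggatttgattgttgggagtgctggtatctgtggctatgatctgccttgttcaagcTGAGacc
SNORA49 (chr12:132031224-132031359, plus strand, intron of EP400) was lower in clone 15 than in parental cells. SNORA73B (chr1:28508559-28508762, plus strand, intron of RCC1) is a copy of U17, an H/ACA RNA needed for cleavage of the ribosomal RNA precursor rather than for pseudouridylation, and had the highest count of all members.
SNORA49: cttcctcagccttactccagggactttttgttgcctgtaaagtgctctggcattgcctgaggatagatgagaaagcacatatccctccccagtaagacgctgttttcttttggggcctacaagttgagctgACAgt
SNORA73B: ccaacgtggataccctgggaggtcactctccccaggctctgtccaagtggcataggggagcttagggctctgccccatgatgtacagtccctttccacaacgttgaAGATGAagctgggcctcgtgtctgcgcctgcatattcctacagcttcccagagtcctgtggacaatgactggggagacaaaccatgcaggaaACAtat
SNORA74D (chr5:139276180-139276320, plus strand, intron of MATR3), SNORA74B (chr5:173020728-173020928, plus strand, intron of ATP6V0E1) and SNORA80C (chr16:30419625-30419759, minus strand, no gene on its strand) had higher values in clone 37 than in parental cells. SNORA74B and SNORA80C passed the filter on low counts, described below, through clone 37 alone, so their direction follows from how they were chosen. SNORA74D and SNORA74B are U19 copies and share a run of 19 bases from base 44 of each.
SNORA74D: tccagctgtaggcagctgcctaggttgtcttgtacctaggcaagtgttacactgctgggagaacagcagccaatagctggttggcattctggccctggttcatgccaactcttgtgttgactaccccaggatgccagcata
SNORA74B: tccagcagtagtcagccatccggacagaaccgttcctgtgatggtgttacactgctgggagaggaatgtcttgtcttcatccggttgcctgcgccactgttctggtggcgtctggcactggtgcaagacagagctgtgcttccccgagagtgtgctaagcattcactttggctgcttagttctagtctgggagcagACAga
SNORA80C: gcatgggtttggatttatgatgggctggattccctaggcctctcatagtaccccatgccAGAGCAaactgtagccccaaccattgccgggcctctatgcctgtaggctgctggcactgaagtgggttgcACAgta

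Among all 213 SNORA members with a sequence, 158 (74.2%) ended in ACA and 2 to 5 further bases, against 7.90% of the 203405 other transcripts of at least 100 bases and 14 of 324 C/D box snoRNA transcripts (4.32%). In SCARNA genes 17 of 25 (68%) did. TGATGA was present in 11 of 25 SCARNA genes (44%), in 7 of 213 SNORA genes (3.29%) and in 13.7% of the 26257 other transcripts of 100 to 450 bases. TGAG did not set the SCARNA genes apart by its letters, since 18 of 25 (72%) held it against 75.5% of those other transcripts. ANANNA in the middle was likewise common, at 89.2% of SNORA genes and 75.5% of the other transcripts. Of the 140 SNORA genes with 1 identifier per symbol, 82.9% had the ACA ending, against 57.5% of the 73 that shared a symbol.

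Gene counts on the transcript strand summed to 10334090 to 13902872 per library in parental and clone 37 cells and to 18654063 to 38093340 in clone 15. Read pairs on no annotated exon were 33.7% to 34.6% of all pairs in clone 15, 25.7% to 29.9% in clone 37 and 26.4% and 28.8% in parental replicates 1 and 3. They were 19.2% in parental replicate 2, which stood apart from the other parental libraries also by gene (chi-square per gene of 13.0 and 13.2 against them, and 2.14 between those). In clone 15, replicate 2 stood apart (11.5 and 9.39 against the other libraries, and 4.98 between those). Members whose call ended or was added without parental replicate 2 are named with the results. Pairs mapping to several places, which are not counted, were 4.59% to 5.98% in clone 15 and 10.4% to 14.0% elsewhere. The HEK293T background genes NEFM and NEFL ranged from 135 to 2810 and from 59.8 to 737 CPM (counts scaled to a library total of 1e6), lowest in clone 37 and highest in clone 15. VIM was at 506 to 586 CPM, and the markers of other lineages (PTPRC, CD3E, ALB, APOA1, HBG1, HBG2, PECAM1 and VWF) were at 0.420 CPM or less in every library, with CD3E and HBG1 at 0 in all of them.

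No read was counted in any library for 124 of the 239 members, and 115 had at least 1 count. Members at 0 were most frequent among those that overlap an exon or have no host on their strand. Of the 120 members lying within host introns 21 were at 0, against 52 of 59 that overlapped a host exon and 51 of 59 with no host on their strand. Reads shared by the exons of more than 1 gene are not assigned to either in this kind of count, and 64 of 76 members overlapping any exon on their strand were at 0. SNORA73A, the neighbouring U17 copy in the same host as SNORA73B, overlaps such an exon and had 0 counts in all 9 libraries, and it was looked up after its value was seen. Of the 75 identifiers that share a symbol, 61 were at 0, compared with 63 of 164 with a symbol of their own. A count of 0 allows up to 3 counts, or 0.0788 CPM in the deepest and 0.290 CPM in the shallowest library, for counting error only.

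In all, 51 members passed the filter on low counts in at least 1 comparison, 40 in all 3, and 28 had a mean of at least 1 CPM. The members' counts summed to 163 to 240 CPM per library (2190 to 7738 counts), and between 95.4% and 97.4% of the stranded counts at members were on the transcript strand. Per kilobase of annotated RNA, SNORA73B averaged 321 CPM in parental, 368 in clone 37 and 528 in clone 15. SCARNA7 averaged 105, 106 and 16.2 CPM per kilobase in the same order, and SCARNA21 103, 91.6 and 52.3. SNORA12, SCARNA5 and SCARNA6 averaged 40.3, 29.0 and 28.3 in parental. Averaged over the 9 libraries, this level exceeded that of the host's exons in 14 of 49 tested members with a host, or 12 of 47 without SNORA74D and SNORA74A, whose host identifier is barely counted. The median ratio over the 49 was 0.331, and it was 0.0417 for SNORA33 in RPS12, a ribosomal protein gene. SCARNA7 stood 7.29 times above KPNA4 in parental, 9.49 times in clone 37 and 1.15 times in clone 15, while SNORA73B stood 9.03 to 11.8 times above RCC1 in the 3 groups. A read pair in an intron is counted to a member when it touches it, so reads of the unspliced host contribute to these values in an amount that was not measured.

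**Figure D1:**
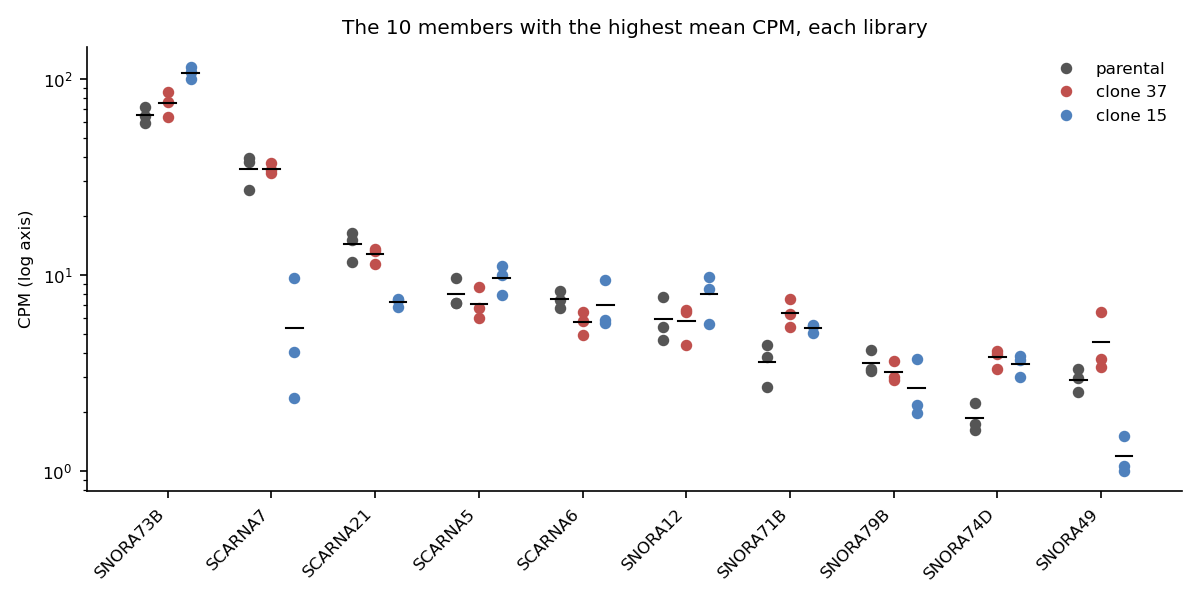
CPM on a log axis for the 10 members with the highest mean CPM. Points are the 3 libraries of each group and black lines their means. SCARNA7 sat between 27.0 and 39.5 CPM in parental and clone 37 libraries and between 2.36 and 9.66 in clone 15.

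In clone 37, SNORA74D, SNORA71B and SNORA38 rose relative to parental cells and SCARNA6 fell. Parental and clone 37 libraries have the same read length. Of 42 members tested, 8 were called by edgeR's quasi-likelihood test (adjusted p under 0.05, Benjamini-Hochberg over all genes), 7 higher and 1 lower, while percent called over all 16501 genes was 54.0 (26.7 higher and 27.3 lower). The filter asks for 3 libraries at 10 counts scaled to the median library, here 0.858 CPM. Of the 42 members, 19 reached this in only 1 of the groups and so passed through that group alone, among them 4 of the 8 called (SNORA74B, SNORA80C, SNORA30 and SNORA55). Their values are given as a description, and the counts and medians over members carry this limit. The share of members called was below that of all genes, and the CPM of the groups did not overlap for 12 members, against 61.7% of all genes. Members had a median of 14.8 counts per library and a median standard error of 0.34 (log2), against 277 counts and 0.098 for all genes. Their median log2 fold change was 0.38, compared with 0.02 for all genes tested, and it was 0.17 without parental replicate 2.

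SNORA74D measured 2.22, 1.73 and 1.61 CPM in parental and 4.11, 3.97 and 3.32 CPM in clone 37, and its fitted log2 fold change was 1.02 ± 0.24 (SE, n = 3 per group, edgeR adjusted p = 0.00144). All 3 clone 37 libraries lay above every parental one. SNORA74A, another U19 copy, averaged 0.964 ± 0.194 CPM in parental and 1.14 ± 0.281 CPM in clone 37 (SD, n = 3). It passed the filter through clone 37 alone and was chosen after its values were seen.

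SNORA71B, from the snoRNA host gene SNHG17, measured 3.79, 2.66 and 4.36 CPM in parental and 6.30, 5.42 and 7.53 CPM in clone 37. Its log2 fold change was 0.82 ± 0.21 (edgeR adjusted p = 0.00267), with no overlap. SNORA38, in an intron of PRRC2A, measured 1.30, 1.08 and 1.07 CPM in parental libraries and 2.01, 2.32 and 2.35 CPM in those of clone 37 and rose by 0.93 ± 0.28 (edgeR adjusted p = 0.00909). Of 16 alternative settings, 3 ended that call.

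For the 4 called members that passed the filter through clone 37 alone, higher values in clone 37 follow from how they were chosen. SNORA74B measured 0.463, 0.647 and 0.842 CPM in parental and 1.73, 1.74 and 1.62 CPM in clone 37. SNORA55, in an intron of the poly(A)-binding protein gene PABPC4, measured 0.925, 0.791 and 1.07 CPM in parental and 1.64, 2.61 and 1.78 CPM in clone 37, and 3 of 16 settings ended its call. SNORA80C and SNORA30 averaged 0.490 ± 0.206 and 0.506 ± 0.363 CPM in parental and 1.34 ± 0.108 and 1.2 ± 0.23 CPM in clone 37 (SD, n = 3). SNORA30 fell outside the rule for naming and was chosen after its values were seen.

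The 1 member that fell was SCARNA6, with 8.23, 7.48 and 6.81 CPM in parental and 4.93, 5.81 and 6.48 CPM in clone 37. Its log2 fold change was -0.40 ± 0.16 (edgeR adjusted p = 0.0427), and the call was lost in 8 of 16 alternative settings. With libraries scaled to reads on no exon, 3 members were called higher and 1 lower, and scaled to summed C/D box snoRNA counts 4 and 2. Without parental replicate 2 the split was 7 higher and 4 lower, with added calls for SCARNA7 (-0.17) and SCARNA21 (-0.33) and without that of SNORA30 (0.98, edgeR adjusted p = 0.0569). SNORA5C and SCARNA9 were also called there, but with all 6 libraries each had passed the filter only through the group where it is higher, parental and clone 37.

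In clone 15 the abundant scaRNA SCARNA7 fell by 2.71 on the log2 scale, SCARNA21 and SNORA49 also fell, and SNORA73B rose. Of 47 members tested, 12 were called, 6 higher and 6 lower, where percent called over all 17703 genes was 51.4 (25.1 higher and 26.2 lower). The groups did not overlap for 15 members, against 59.5% of all genes. The median log2 fold change of members was 0.34 against 0.02 for all genes, and it was 0.07 without parental replicate 2. At a filter of 0.614 CPM, 14 of the 47 passed through 1 group alone, among them 4 of the 12 called (SCARNA22, SNORA72 and SNORA59B through parental and SNORA73 through clone 15).

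SCARNA7 was counted 427, 376 and 491 times in the parental libraries and 153, 238 and 44 times in the deeper clone 15 libraries. That is 39.5, 27.0 and 37.6 CPM against 4.02, 9.66 and 2.36 CPM. All clone 15 libraries lay below all others but, relative to their mean, differed more among themselves (5.35 ± 3.83 CPM) than the parental libraries did (34.7 ± 6.71 CPM, SD, n = 3). The log2 fold change was -2.71 ± 0.52 (edgeR adjusted p = 0.0133). The call was lost in 3 of 16 alternative settings, without parental replicate 1 (-2.64, edgeR adjusted p = 0.0512), with a replicate block (-2.81, 0.0678) and scaled to C/D box snoRNA counts (-1.60, 0.0632). Leaving out 1 library gave -3.36 to -2.40, the former without clone 15 replicate 2, which holds its highest clone 15 value.

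SCARNA21 measured 16.3, 11.7 and 15.1 CPM in parental and 7.46, 7.51 and 6.86 CPM in clone 15. It fell by 1.00 ± 0.14 on the log2 scale (edgeR adjusted p = 1.9e-06), and the groups did not overlap. SNORA49 measured 2.96, 2.52 and 3.29 CPM in parental and 0.998, 1.06 and 1.5 CPM in clone 15, a log2 fold change of -1.36 ± 0.28 (edgeR adjusted p = 2.18e-04). SCARNA22, in an intron of the histone methyltransferase gene NSD2, measured 1.76, 0.935 and 1.22 CPM in parental and 0.578, 0.690 and 0.804 CPM in clone 15, a description for the reason given, and 8 of 15 alternative settings ended its call. SCARNA9 did not pass the filter in this comparison, where the parental libraries held 10, 16 and 7 of its counts and the clone 15 libraries 4, 5 and 1.

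SNORA73B measured 72.2, 59.7 and 64.7 CPM in parental and 99.8, 115 and 109 CPM in clone 15. Its log2 fold change was 0.69 ± 0.08 (edgeR adjusted p = 1.8e-07), and all 3 clone 15 libraries lay above all parental and clone 37 ones. Clone 15 had more read pairs on no exon. Scaled to those pairs, the log2 fold change of SNORA73B was 0.19 and did not pass the test (edgeR adjusted p = 0.586). SNORA73 in an intron of MIB1 (ENSG00000199977), whose longest run shared with SNORA73B is 34 bases, measured 0.278, 0.144 and 0.612 CPM in parental and 1.16, 0.893 and 0.697 CPM in clone 15. It was chosen after its values were seen. Whether reads of other copies or the longer clone 15 reads affect its level was not tested, so that level is uncertain.

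SNORA38, SNORA74D and SNORA71B were called higher in clone 15, in a comparison that shares its parental libraries with that of clone 37. They measured 2.23, 1.79 and 2.63 CPM (SNORA38), 3.68, 3.00 and 3.86 CPM (SNORA74D) and 5.04, 5.56 and 5.47 CPM (SNORA71B). The log2 fold changes were 0.91 ± 0.30, 0.90 ± 0.25 and 0.55 ± 0.20 (edgeR adjusted p = 0.0122, 0.00341 and 0.0236), and 2 of 16 settings ended the call of SNORA38 and 5 that of SNORA71B, the latter also without parental replicate 2 (0.38). SNORA11F rose by 0.68 ± 0.27 (edgeR adjusted p = 0.0366), a call that 10 of 16 alternative settings ended. SNORA59B averaged 0.961 CPM in parental and 0.467 in clone 15, and the SNORA72 entry in RPL30 (ENSG00000207067) 1.18 and 0.583 CPM, and both were chosen after their values were seen.

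Other library scalings shift all genes together, so the split of calls among members follows that shift. Scaled to reads on no exon, the median of all genes was -0.49, and 0 members were called higher and 9 lower. Scaled to summed C/D box snoRNA counts, that median was 1.09, 15720 of 17703 genes were called, and 38 members were called higher and 0 lower. SCARNA7 and SNORA49 were below parental under both, though neither passed the test under the second, while SCARNA21 was at 0.08 under the second. Without parental replicate 2, 3 were called higher and 5 lower. The calls that ended were those of SNORA71B, SNORA11F (0.59, edgeR adjusted p = 0.0922), SNORA73 in MIB1 (1.02, 0.11) and SNORA59B (-0.96, 0.109).

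**Figure D2:**
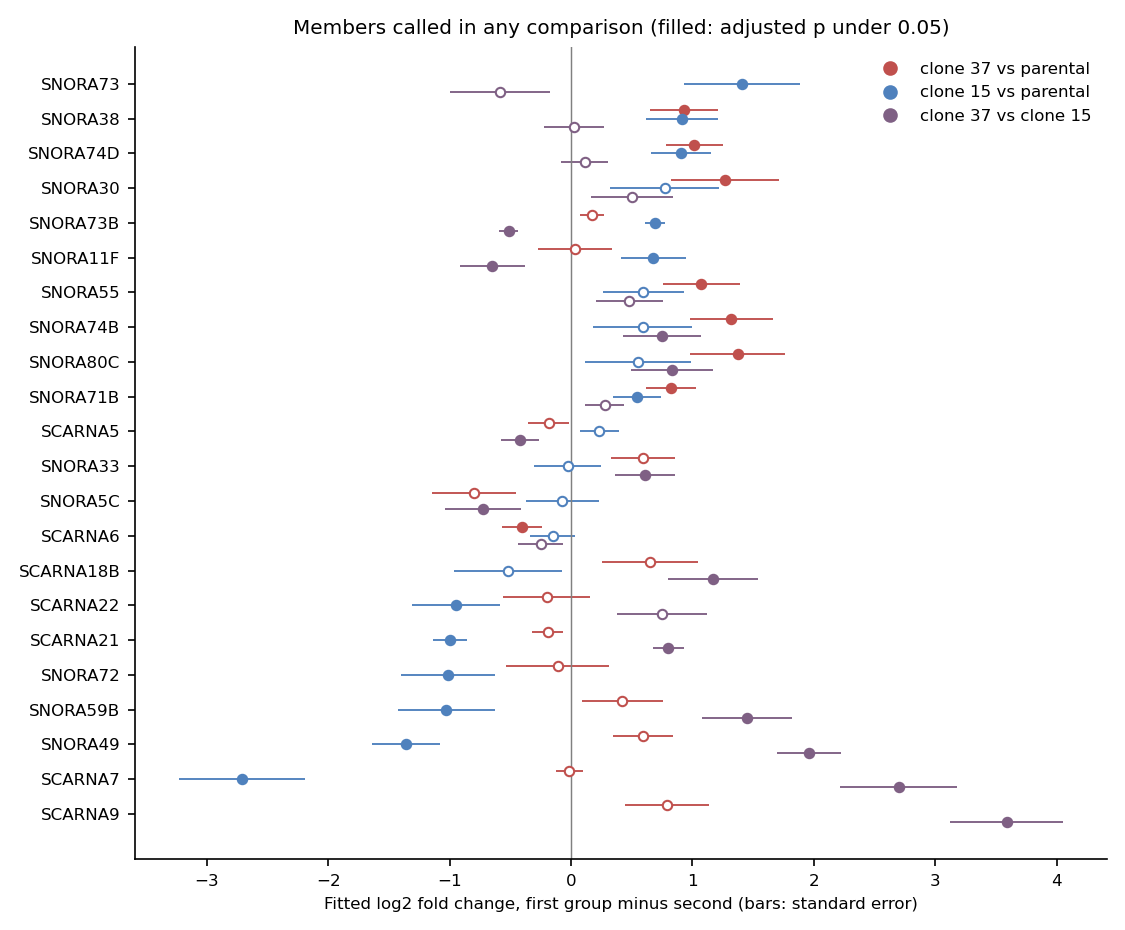
Fitted log2 fold changes with standard errors for the 22 members called in any comparison, in clone 37 against parental, clone 15 against parental and clone 37 against clone 15 (filled points: adjusted p under 0.05). Members that passed the filter through 1 group alone are drawn too. SCARNA7 is at -2.71 in clone 15 and at -0.01 in clone 37, and SNORA49 is at -1.36 in clone 15 and 0.59 in clone 37.

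Between the clones, SCARNA7, SNORA49 and SCARNA21 were higher in clone 37 and SNORA73B was lower. Of 50 members tested between clone 37 and clone 15, 13 were called, 9 higher and 4 lower in clone 37, where percent called over all 17712 genes was 57.7 (28.7 and 29.0). The groups did not overlap for 17, against 63.5% of all genes. At a filter of 0.645 CPM, 15 of the 50 passed through 1 group alone, and SCARNA9, SCARNA18B, SNORA80C and SNORA59B, 4 of the 13 called, did so through clone 37, so their values are a description. SCARNA9 joins a pair of C/D guides and measured 1.46, 1.65 and 1.54 CPM in clone 37 and 0.105, 0.203 and 0.0536 CPM in clone 15. The parental values of 0.925, 1.15 and 0.536 CPM lay between the clones.

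SCARNA7 measured 33.1, 37.4 and 34.2 CPM in clone 37, a log2 difference to clone 15 of 2.7 ± 0.48 (edgeR adjusted p = 0.00895), and its change from parental in clone 37 was -0.01 ± 0.11. SNORA49 was at 3.38, 6.48 and 3.72 CPM in clone 37, which is 1.96 ± 0.27 (log2) above clone 15 (edgeR adjusted p = 4.7e-07), and its rise over parental of 0.59 ± 0.25 missed the threshold (edgeR adjusted p = 0.0517). SCARNA21 was also higher in clone 37 (0.80 ± 0.12). SCARNA18B measured 1.1, 1.35 and 1.38 CPM in clone 37 and 0.735, 0.366 and 0.536 CPM in clone 15. The tested SCARNA genes without a call were SCARNA6 (-0.25 ± 0.19) and SCARNA1 and SCARNA22, which passed the filter through clone 37 alone.

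SNORA73B was lower in clone 37 by 0.52 ± 0.08 on the log2 scale (edgeR adjusted p = 1.68e-05), and this call was also lost when libraries were scaled to reads on no exon (-0.23). SNORA74B and SNORA33 were 0.75 ± 0.32 and 0.61 ± 0.25 higher in clone 37, and SNORA5C and SNORA11F were 0.73 ± 0.31 and 0.65 ± 0.26 lower (edgeR adjusted p = 0.0372 to 0.0481). Of 16 alternative settings, 12 ended the call of SNORA5C, 9 that of SNORA11F, 8 that of SNORA74B and 4 that of SNORA33. SCARNA5 was called lower (-0.42 ± 0.16, edgeR adjusted p = 0.0244) although its groups overlapped, and 5 of 16 settings ended that call. With reads on no exon as the scale, 19 members were called higher and 0 lower, and scaled to summed C/D box snoRNA counts 3 and 34.

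Summed over all members of a class, SCARNA counts were lower in clone 15 and SNORA counts higher. SCARNA genes summed to 77.2, 57.2 and 75.9 CPM in parental, 64.8, 72.3 and 68.9 CPM in clone 37 and 32.7, 34.5 and 34.0 CPM in clone 15. The difference of clone 15 to parental was -36.3 CPM (two-sided exact permutation p = 0.1, the smallest that 3 against 3 libraries allow, and 0.18 after Benjamini-Hochberg adjustment over 36 comparisons). SCARNA7 made up 47.3% to 51.7% of the SCARNA counts in parental and clone 37 libraries and 6.93% to 28.0% in clone 15. Without it the sums were 35.4 ± 4.53, 33.8 ± 1.77 and 28.4 ± 3.44 CPM (SD, n = 3) in parental, clone 37 and clone 15, and the parental and clone 15 libraries overlapped. Scaled to reads on no exon, these sums did not overlap, at 80.3 ± 11.8 in parental and 45.3 ± 6.19 in clone 15 per 1e6 such pairs (two-sided exact permutation p = 0.1). On that scale the median log2 fold change of all genes in clone 15 was itself -0.49.

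SNORA genes summed to 126 ± 17.3, 153 ± 16.6 and 179 ± 7.54 CPM in the same order (SD, n = 3). SNORA73B was 48.3% to 56.3% of these counts in parental and 58.6% to 62.0% in clone 15. Without it the sums were 60.3 ± 12.3, 78.3 ± 5.85 and 71.1 ± 1.13 CPM, and every library of both clones lay above the parental ones (two-sided exact permutation p = 0.1 for each clone). The parental libraries spread widely, at 65.5, 46.3 and 69.2 CPM, with replicate 2 lowest, and clone 15 lay between 70.3 and 72.4. The SNORA difference of clone 15 to parental, 53.0 CPM, became -0.961 when libraries were scaled to reads on no exon. That scale moved the median log2 fold change of all genes in clone 15 to -0.49, so the sums on it include a shift of all genes. On that scale the SNORA sum without SNORA73B was lower in clone 15 than in parental (113 ± 3.65 against 135 ± 8.12, two-sided exact permutation p = 0.1). Without parental replicate 2, the SNORA difference of clone 37 to parental was 17.6 CPM rather than 27.5.

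**Figure D3:**
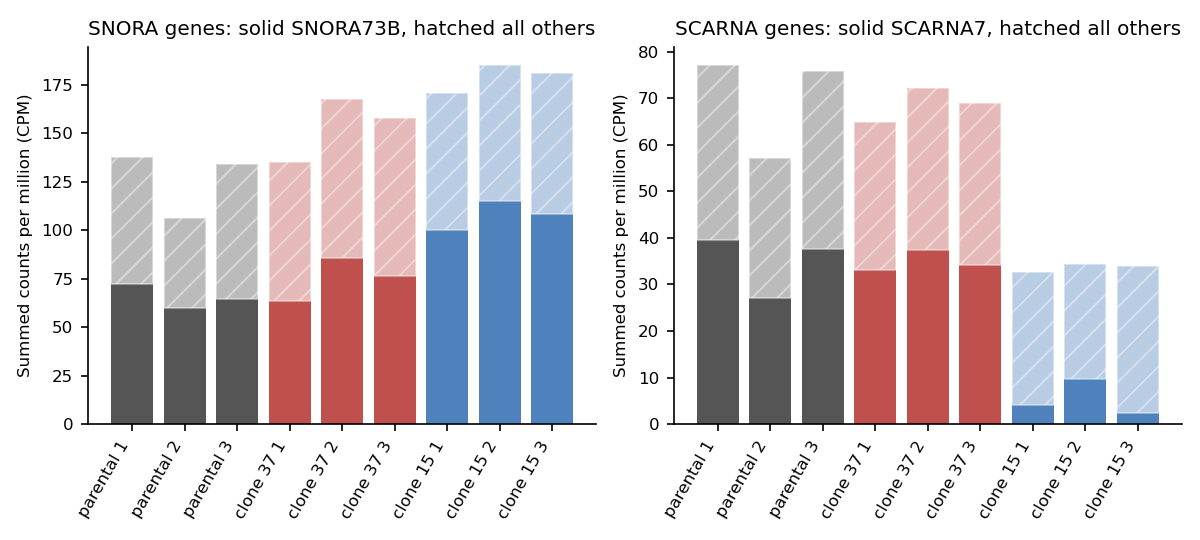
Summed CPM of all SNORA genes (left) and all SCARNA genes (right) in each of the 9 libraries, with SNORA73B or SCARNA7 solid and the other members hatched. The SCARNA bars of clone 15 stand at 32.7 to 34.5 CPM, and their solid SCARNA7 parts, at 2.36 to 9.66 CPM, are lower than in any parental or clone 37 library.

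Changes of a member and of its host gene could be set side by side for 38 to 48 members per comparison. In clone 37 against parental, 30 of 38 pairs had the same sign, and the 6 called members with a tested host all did, 4 of them with a called host. Of these 6, SNORA74B, SNORA55 and SNORA30 passed the filter through clone 37 alone, so their sign follows from how they were chosen. In clone 15 against parental 29 of 45 pairs had the same sign, with 8 of 11 called members, 6 of them with a called host. Between the clones 35 of 48 did, with 8 of 11 called members, 3 of them with a called host. Of all tested hosts, 54.1%, 58.1% and 55.6% were called in the same order, near the 54.0%, 51.4% and 57.7% of all genes. The pairs of every comparison include members that passed the filter through 1 group alone, so the counts of signs and the correlations below carry that limit. SNORA71B and SNHG17 rose by 0.82 and 0.83 in clone 37. SNORA38 rose by 0.93 while PRRC2A was at 0.02 ± 0.07 and not called. Across these 38 pairs, which share libraries and in part hosts, Pearson's r was 0.51, and it was 0.30 over 45 pairs in clone 15 against parental and 0.10 over 48 pairs between the clones.

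In clone 15 the hosts of SCARNA7, SNORA49 and SCARNA21 were not called. KPNA4, an importin gene that hosts SCARNA7, was at -0.06 ± 0.08 (edgeR adjusted p = 0.568), EP400, a chromatin remodeller that hosts SNORA49, at 0.06 ± 0.08 (edgeR adjusted p = 0.544) and CHD3, another remodeller that hosts SCARNA21, at -0.02 ± 0.08 (edgeR adjusted p = 0.835). CEP295, the centrosome gene that hosts SCARNA9, differed by 0.15 ± 0.07 between the clones and was not called (edgeR adjusted p = 0.0585). RCC1, the exchange factor of the GTPase Ran, rose by 0.62 ± 0.08 in clone 15 beside SNORA73B at 0.69. In clone 37, however, RCC1 was at 155 to 161 CPM against 107 to 116 CPM in parental, while SNORA73B was not called (0.17 ± 0.10). The MATR3 identifier holding SNORA74D and SNORA74A overlaps a second MATR3 identifier and averaged 0.154 CPM per kilobase, so its changes are not read, although the counts and correlations of pairs above include it wherever clone 15 is compared.

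**Figure D4:**
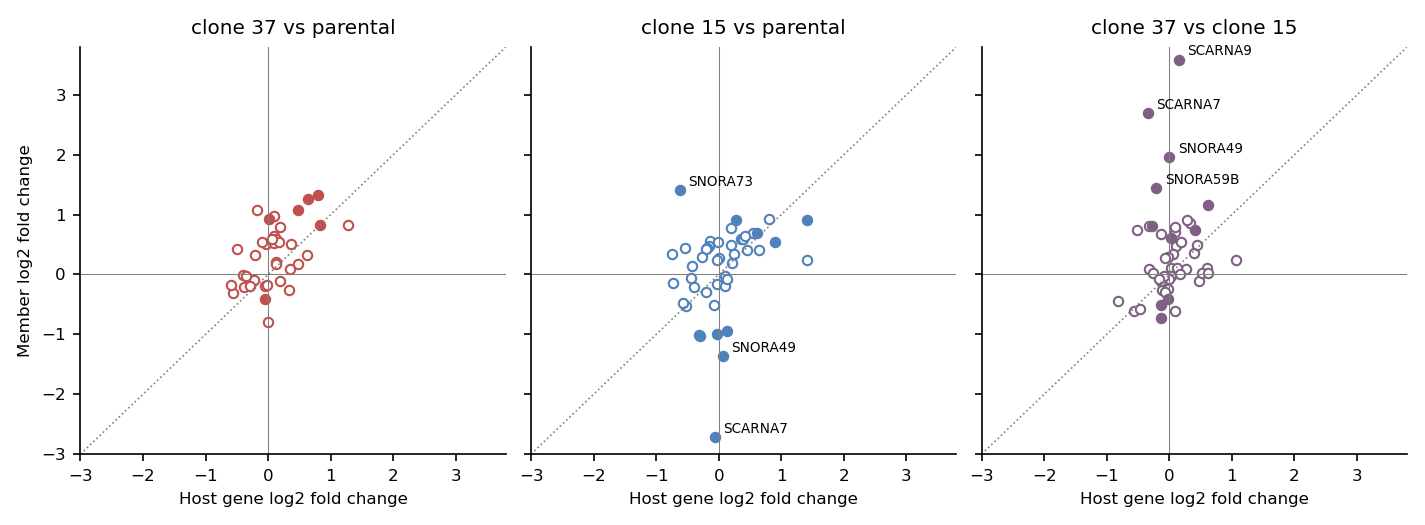
Log2 fold change of each tested member (vertical) against that of its host gene (horizontal) in the 3 comparisons, with called members filled and the dotted line marking equality. Members whose change differs from the host's by more than 1.2 are named, such as SCARNA7 at -2.71 with KPNA4 at -0.06 in clone 15.

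Of the 10 H/ACA core and assembly genes, 8 were called in clone 37, 6 higher and 2 lower, and 9 in clone 15, all higher, where 54.0% and 51.4% of all genes were called, with median log2 fold changes of 0.32 and 0.49. Among the core proteins, NHP2 rose by 0.67 ± 0.07 in clone 37 and 0.69 ± 0.09 in clone 15, and GAR1 by 0.75 ± 0.08 and 0.59 ± 0.09. NOP10 rose by 0.59 ± 0.09 in clone 15, while its value of 0.22 ± 0.08 in clone 37 was called in the main test and in 5 of 16 alternative settings. DKC1, the pseudouridine synthase, was at 159 to 168 CPM in parental, 172 to 184 in clone 37 and 200 to 213 in clone 15, and its change was called in clone 15 (0.29 ± 0.08) and not in clone 37 (0.08 ± 0.06).

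Some assembly factors differed between the clones. NAF1, which holds the place of GAR1 during assembly, measured 54.1, 48.0 and 53.7 CPM in parental, 100, 101 and 91.9 CPM in clone 37 and 52.9, 56.5 and 51.2 CPM in clone 15. It rose by 0.89 ± 0.06 in clone 37 (edgeR adjusted p = 4.3e-09) and was at 0.02 ± 0.08 in clone 15, a difference of 0.87 ± 0.06 between them. SHQ1, the DKC1 chaperone, rose by 0.42 ± 0.07 and 0.49 ± 0.09. The AAA ATPase gene RUVBL2 and its partner PIH1D1 fell by 0.27 ± 0.07 each in clone 37 and rose by 0.50 ± 0.09 and 0.38 ± 0.08 in clone 15. With reads on no exon as the scale, DKC1, RUVBL1, RUVBL2, SHQ1, NOLC1, PIH1D1 and NAF1 had negative values in clone 15, as DKC1, NOP10, RUVBL1, RUVBL2 and PIH1D1 had in clone 37, and 0 of the 10 genes were called in either clone (1 in clone 37 and 0 in clone 15 at an unadjusted p under 0.05). The lost calls are not lost rises for every gene. In clone 37, NAF1, GAR1, NHP2, NOLC1 and SHQ1 stayed above 0 in all 16 alternatives, with lowest values of 0.68, 0.52, 0.42, 0.42 and 0.19. In clone 15, NHP2, GAR1 and NOP10 did so, with lowest values of 0.15, 0.076 and 0.058. Scaled to summed C/D box snoRNA counts, clone 37 had 4 calls above and 1 below parental, and all 10 genes were higher in clone 15.

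Of the 9 Cajal body and telomerase genes 8 could be tested, and 6 were called in each clone (5 higher and 1 lower in clone 37, 4 and 2 in clone 15), or 75% against 54.0% and 51.4% of all genes. Some of these calls were weak. That of TGS1 in clone 37 held in 1 of 16 alternative settings, and those of GEMIN2 and GEMIN5 in clone 15 held in 7 and 11. WRAP53, the CAB box binding protein, measured 25.4, 25.5 and 26.6 CPM in parental, 31.0, 31.5 and 32.5 CPM in clone 37 and 47.6 to 51.4 CPM in clone 15. Its rise was 0.27 ± 0.08 in clone 37, a call that 4 of 16 settings ended, and 0.91 ± 0.09 in clone 15. With reads on no exon as the scale WRAP53 was at 0.049 and 0.40 and not called in either clone (edgeR adjusted p = 0.937 and 0.205). On that scale 0 of the 8 genes were called in clone 37 (2 at an unadjusted p under 0.05), and in clone 15 TERT and TGS1 were called lower and 0 higher. Scaled to summed C/D box snoRNA counts, clone 37 had 0 calls above and 1 below parental, and clone 15 had 7 and 1. TERT, the telomerase reverse transcriptase, fell by 1.68 ± 0.23 in clone 15, from 4.75 to 6.94 CPM in parental to 1.29 to 2.27 CPM, and was at -0.41 ± 0.18 in clone 37, which did not pass the test. TERC, the H/ACA RNA of telomerase, was at 0.406 CPM or less in all libraries and was not tested. COIL, the coilin scaffold of Cajal bodies, was at 0.22 ± 0.08 in clone 37, a call that 8 of 16 settings ended, and at 0.06 ± 0.10 in clone 15.

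Of 18 genes for processing and decay of snoRNAs, 11 were called in clone 37 (7 higher and 4 lower) and 10 in clone 15 (4 higher and 6 lower). These shares, 61.1% and 55.6%, are near the 54.0% and 51.4% of all genes called. With reads on no exon as the scale, the higher and lower calls were 0 and 2 (DIS3 and XRN1) in clone 37 and 0 and 8 in clone 15. With summed C/D box snoRNA counts as the scale they were 0 and 3 in clone 37 and 17 and 0 in clone 15, where DIS3, XRN1, TENT4B, PARN and CWC22 were above 0. DIS3, the catalytic exosome nuclease, fell by 1.21 ± 0.06 in clone 37, from 259 to 276 CPM down to 114 to 123 CPM, and by 0.31 ± 0.08 in clone 15. The exonuclease gene XRN1 fell by 0.72 ± 0.05 and 0.41 ± 0.08. TENT4B, a noncanonical poly(A) polymerase, rose by 0.53 ± 0.07 in clone 37 and fell by 0.36 ± 0.09 in clone 15, and the deadenylase gene PARN was at 0.12 ± 0.06 and -0.40 ± 0.08. TOE1, a deadenylase of small nuclear RNAs, rose by 0.50 ± 0.10 and 0.83 ± 0.11, and with reads on no exon as the scale it was at 0.29 and 0.32 and not called (edgeR adjusted p = 0.523 and 0.305). CWC22, a splicing factor, fell by 0.91 ± 0.10 in clone 15.

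**Figure D5:**
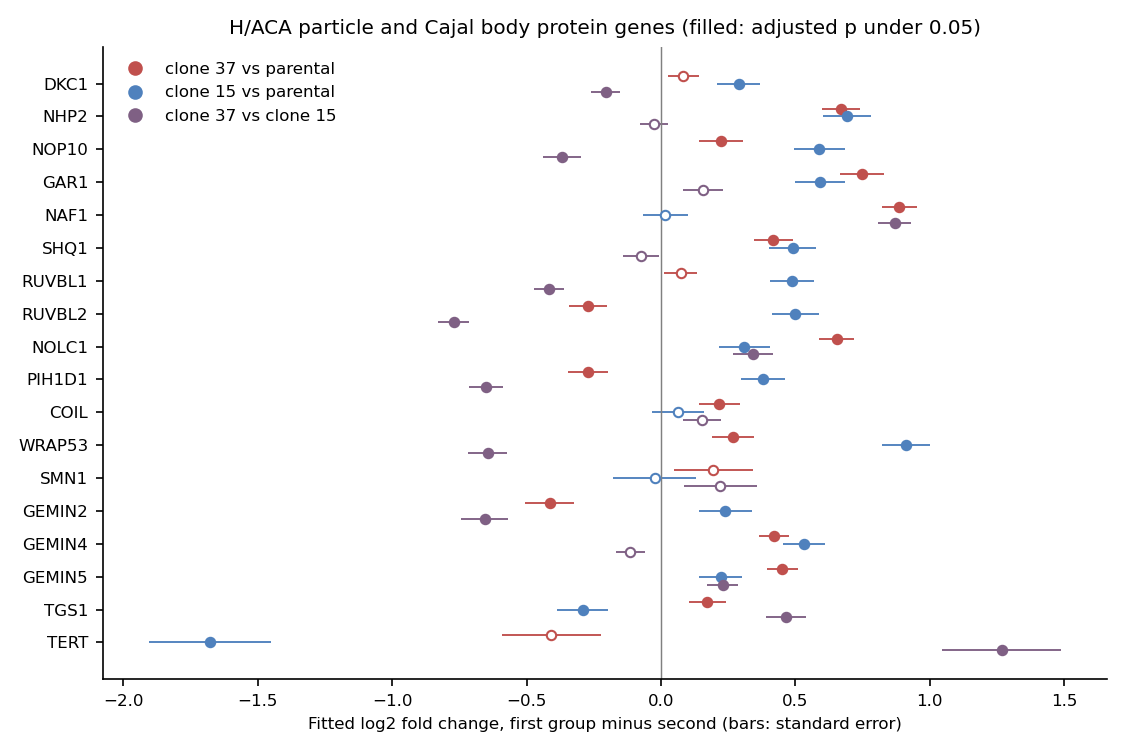
Fitted log2 fold changes with standard errors of the 18 tested H/ACA particle, Cajal body and telomerase protein genes in the 3 comparisons (filled points: adjusted p under 0.05). NAF1 is at 0.89 in clone 37 and 0.02 in clone 15, and TERT at -1.68 in clone 15.

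C/D box snoRNAs, the class that guides 2′-O-methylation, were counted in the same libraries. Of 29 tested in clone 37 against parental 15 were called (51.7%, against 54.0% of all genes), all higher, with a median log2 fold change of 0.78 against 0.46 for the SNORA genes. The tested C/D box snoRNAs had a median of 16.5 counts per library there. How many of them passed the filter through 1 group alone was not counted. Directions and medians of this class, in both clones, therefore carry the limit given for members. In clone 15, 9 of 29 were called (31.0%, against 51.4% of all genes), 7 higher and 2 lower, with a median of 0.39 against 0.42. Their summed counts were 457 ± 1.61 CPM in parental, 534 ± 92.1 CPM in clone 37 and 222 ± 21.0 CPM in clone 15 (SD, n = 3). SNORD3A (U3, which acts in cleavage of the ribosomal RNA precursor) accounted for 53.6% to 86.4% of them and was at 375 to 396 CPM in parental, 328 to 495 in clone 37 and 109 to 147 in clone 15. Without SNORD3A the C/D sums were 62.3 to 80.4 CPM in parental, 109 to 126 in clone 37 and 87.8 to 97.5 in clone 15.

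Members of both length classes were called in clone 15, where 51.4% of all genes were. Of 11 tested members over 160 bases, 5 were called, and of 36 up to 160 bases 7 were called. The median log2 fold changes were 0.24 and 0.38. In clone 37 against parental, 3 of 11 and 5 of 31 were called, where 54.0% of all genes were, with medians of 0.22 and 0.50. For clone 37 against clone 15, 6 of 12 and 7 of 38 were called, where 57.7% of all genes were. The medians there were 0.26 and 0.10.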

How the data were processed

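Total RNA depleted of ribosomal RNA was sequenced as directional paired libraries, 75 bp long for parental cells and clone 37 and 100 bp for clone 15, per the labels' protocols. The deposited files hold raw read counts per gene from the authors, and the submitters' processing notes name FastQC 0.11.9, STAR 2.7.10a and hg38. The annotation release is not given in the sources used here. Column 4, the transcript strand, was used, and the 4 summary entries stayed out of library sizes. Symbols came from a name table (60370 of 60683 identifiers matched), and positions, hosts and sequences from GENCODE 29 (238 of 239 members).

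Each comparison was fitted on its 6 libraries with edgeR 4.0.16 in R 4.3.3 (filterByExpr, TMM, robust quasi-likelihood F test), with Benjamini-Hochberg adjustment over all genes tested and a threshold of 0.05. The standard error is the log2 fold change divided by the square root of F. Sums were compared with exact permutation tests (scipy 1.17.1). DESeq2 1.42.0, other scalings and filters, unstranded counts, thinning, a replicate block and leaving out each library were alternatives, and the fit was tested on simulated data. A host is the gene on the same strand whose span holds the member.

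Named members are, per comparison, up to 8 called in each direction with a mean of at least 1 CPM and groups that do not overlap, the 10 highest by mean CPM and each tested SCARNA gene. All core, assembly, Cajal body and telomerase genes, and the 4 most changed called processing genes per comparison, could also be named. The members and lists were chosen with earlier results of these data known. Sums without SNORA73B, SCARNA7 or SNORD3A were added after seeing the data. Gene totals ran from 10334090 to 38093340 counts per library, and intervals of a count of 0 cover counting error only.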

Additional observations from a re-analysis of the deposited data

Results flagged for a closer look

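The change from parental cells differed between the clones, by edgeR's quasi-likelihood test of clone 37 against clone 15 (adjusted p under 0.05), for 31 of the 46 named genes tested, where 57.7% of all genes were called. Of these 31, 13 were named in part because they were called there. Values are log2 differences, clone 37 minus clone 15, and positive means higher in clone 37. The members above 0 were SNORA74B (0.75), SCARNA7 (2.7), SNORA49 (1.96), SCARNA21 (0.80), SNORA80C (0.83), SNORA33 (0.61), SCARNA18B (1.17) and SCARNA9 (3.59). Those below 0 were SNORA73B (-0.52), SNORA11F (-0.65), SNORA5C (-0.73) and SCARNA5 (-0.42). Among the listed protein genes, NAF1 (0.87), NOLC1 (0.34), GEMIN5 (0.23), TGS1 (0.46), TERT (1.27), TENT4B (0.88), CWC22 (0.73), PAPOLG (0.24) and PARN (0.52) were higher in clone 37 and DKC1 (-0.21), NOP10 (-0.37), RUVBL1 (-0.42), RUVBL2 (-0.77), PIH1D1 (-0.65), WRAP53 (-0.64), GEMIN2 (-0.66), DIS3 (-0.90), XRN1 (-0.31) and TOE1 (-0.33) lower. SCARNA9, SCARNA18B and SNORA80C passed the filter through clone 37 alone, so their values are a description. Read length differed between the clones, and its part in these differences cannot be told apart from that of the clone.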

How the results depend on the processing

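Each comparison had 16 alternatives. For clone 37 against parental, DESeq2 called 5 members and scaling to reads on no exon 4, with 5 to 11 when 1 library was left out. The median there was 0.20 under either other scaling and 0.17 to 0.48 without 1 library. For clone 15 against parental, DESeq2 called 7 and scaling to summed C/D box snoRNA counts 38, with 8 to 10 without 1 library. The median was -0.10 scaled to reads on no exon, 1.41 scaled to C/D counts and 0.066 to 0.32 without 1 library. For clone 37 against clone 15, DESeq2 called 8 and C/D scaling 37, with 7 to 16 without 1 library. The median was 0.025 with no filter, 0.18 unstranded, 0.17 with all 9 libraries in 1 fit, 0.40 and -1.14 under the 2 other scalings and 0.15 to 0.23 without 1 library. Scaling to reads on no exon put the summed SNORA difference at -0.961 for clone 15 against parental and at 13.7 for clone 37 against clone 15. The SCARNA difference of clone 37 to parental ranged from -7.83 to 2.15 CPM without 1 library. Same-numbered libraries did not deviate together (r of -0.16 to 0.02), so the number was not used for pairing. With the replicate number as a block, SCARNA7 in clone 15 was at -2.81 (edgeR adjusted p = 0.0678) and SNORA11F in clone 37 at -0.0016, and 7, 10 and 13 members were called in the 3 comparisons. Thinned counts put SNORA38 at -0.12 for clone 37 against clone 15, and unstranded counts put NAF1 at -0.041 for clone 15 against parental and NHP2 at 0.17 for clone 37 against clone 15. For clone 37 against parental, scaling to reads on no exon turned the log2 fold changes of SNORA73B (-0.048), SNORA11F (-0.14), DKC1 (-0.14), NOP10 (-0.023), RUVBL1 (-0.16), COIL (-0.030), SMN1 (-0.032), TGS1 (-0.058) and PARN (-0.10). For clone 15 against parental, scaling to reads on no exon turned the log2 fold changes of SCARNA5 (-0.24), SNORA12 (-0.070), SCARNA1 (-0.17), DKC1 (-0.23), NAF1 (-0.49), SHQ1 (-0.035), RUVBL1 (-0.040), RUVBL2 (-0.038), NOLC1 (-0.22), PIH1D1 (-0.12), COIL (-0.47), GEMIN2 (-0.27) and GEMIN5 (-0.30). For clone 37 against clone 15, scaling to reads on no exon turned the log2 fold changes of SCARNA6 (0.034), DKC1 (0.088), NHP2 (0.27), SHQ1 (0.22) and GEMIN4 (0.18). For clone 37 against parental, scaling to summed C/D snoRNA counts turned the log2 fold changes of SNORA73B (-0.025), SNORA11F (-0.14), DKC1 (-0.088), RUVBL1 (-0.096) and PARN (-0.047). For clone 15 against parental, scaling to summed C/D snoRNA counts turned the log2 fold changes of SCARNA6 (0.91), SCARNA21 (0.080), SNORA5C (1.0), SNORA33 (1.06), SNORA79B (0.63), SCARNA18B (0.53), SCARNA22 (0.12), SMN1 (1.06), TGS1 (0.78), DIS3 (0.77), XRN1 (0.67), TENT4B (0.72), CWC22 (0.17), PAPOLG (0.37) and PARN (0.68). For clone 37 against clone 15, scaling to summed C/D snoRNA counts turned the log2 fold changes of SNORA74B (-0.52), SNORA55 (-0.80), SNORA74D (-1.13), SNORA38 (-1.24), SNORA71B (-0.98), SCARNA21 (-0.45), SNORA80C (-0.43), SNORA33 (-0.66), SNORA79B (-1.0), SCARNA1 (-0.53), SCARNA18B (-0.084), SCARNA22 (-0.53), GAR1 (-1.11), NAF1 (-0.38), NOLC1 (-0.89), COIL (-1.09), SMN1 (-1.05), GEMIN5 (-1.01), TGS1 (-0.77), TERT (-0.0049), TENT4B (-0.37), CWC22 (-0.51), PAPOLG (-1.0) and PARN (-0.73). Leaving out 1 library at a time also turned, for clone 37 against parental, SCARNA7 (-0.17 to 0.078), SNORA11F (-0.18 to 0.24), SNORA12 (-0.18 to 0.17) and SCARNA22 (-0.46 to 0.037). Leaving out 1 library at a time also turned, for clone 15 against parental, SNORA5C (-0.25 to 0.23), SNORA33 (-0.18 to 0.19), SCARNA1 (-0.013 to 0.87), NAF1 (-0.016 to 0.061), COIL (-0.020 to 0.18) and SMN1 (-0.12 to 0.098). Leaving out 1 library at a time also turned, for clone 37 against clone 15, SNORA74D (-0.012 to 0.19) and SNORA38 (-0.13 to 0.13). Scaling to reads on no exon moved the median of all genes to -0.19, -0.49 and 0.29 in clone 37 and clone 15 against parental and between the clones, and C/D scaling moved it to -0.15, 1.09 and -1.26, so the turns under both follow a shift of all genes. Without parental replicate 2, clone 37 also gained calls for RUVBL1 (0.12), TERT (-0.57) and PARN (0.15), and clone 15 lost that of GEMIN2 (0.24). The cause was not tested for the changes under other settings. With a median of 14.8 to 19.5 counts per library, the tested members allow only coarse fold changes, and members at 0 allow none.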
